A study of Mus musculus with 32 samples.

Results

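Metallothionein genes and genes of the oxidative stress response were followed in quadriceps muscle of mice without Col6a2, which encodes 1 of the chains of collagen VI in the matrix around muscle fibres. The members were the rows of the deposited tables named Mt1, Mt2, Slc39a14, Hmox1, Nqo1, Gclc, Gclm, Txnrd1 and Srxn1, which make 9 of 53801 gene IDs. They were chosen with their genotype differences in these libraries already known. For that reason their levels and differences between genotypes are given as a description with no p-value, and tests are given for age in wild-type (WT) mice and for sex.

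RNA of quadriceps was sequenced from 32 mice in 8 groups of 4, which were WT or Col6a2-/-, 5 or 25 weeks old, and female or male. Per the labels, Col6a2-/- mice were homozygous for the allele Col6a2 tm1(KOMP)Vlcg made in C57BL/6N. After 5 generations of backcrossing onto C57BL/6J, both genotypes were bred from heterozygous parents. The knockout was of the whole animal, so every cell type of the muscle carried it, and the labels name no treatment. Each library came from 1 mouse, from cryosections of frozen whole muscle, so fibres, connective tissue, vessels and immune cells were read together.

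Metallothioneins are small cysteine-rich proteins that bind zinc and copper. Their genes are switched on by the zinc-sensing factor MTF1, which binds metal response elements in their promoters, and also by glucocorticoids and inflammatory cytokines. The oxidative stress genes are classic targets of NRF2 (gene Nfe2l2), a factor that KEAP1 marks for breakdown until oxidants or electrophiles modify KEAP1. NRF2 binds antioxidant response elements and drives enzymes that make glutathione, detoxify quinones, break down haem and repair oxidised proteins.

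Mt1 (ENSMUSG00000031765) lies at chr8:94179082-94180327 and Mt2 (ENSMUSG00000031762) at chr8:94172664-94173568, both on the plus strand of GRCm38, with 5513 bases between the end of Mt2 and the start of Mt1. Slc39a14 (ENSMUSG00000022094) lies at chr14:70303469-70351425 on the minus strand and Hmox1 (ENSMUSG00000005413) at chr8:75093621-75100589 on the plus strand. Nqo1 (ENSMUSG00000003849) lies at chr8:107388225-107403206 on the minus strand, and Srxn1 (ENSMUSG00000032802) at chr2:152105516-152111376 on the plus strand. Gclc (ENSMUSG00000032350) lies at chr9:77754535-77794485, Gclm (ENSMUSG00000028124) at chr3:122245557-122270732 and Txnrd1 (ENSMUSG00000020250) at chr10:82833951-82897712, all on the plus strand. In the GENCODE M21 annotation, exons of Gclm overlap on the same strand with those of the pseudogene Gm6061, which was itself listed at up to 13.0 TPM, so reads could be split between them and the value of Gclm is uncertain. Mt2 overlaps the antisense gene Gm45774, which was listed at no more than 0.117 TPM.

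RefSeq promoter windows (GRCm38.p6, 250 bases before to 50 bases from the annotated start, which is base +1) were found for 6 of the 9 genes, namely Mt1, Mt2, Nqo1, Gclm, Txnrd1 and Srxn1. The core of the metal response element was searched as TGCACNC or TGCGCNC on both strands, and positions are those of the leftmost base on the gene's strand. The windows of the metallothionein pair are shown because these genes had the largest genotype differences among the 9, with the matches in capitals. The Mt1 window (chr8:94178839-94179138, plus strand) held 3 matches, at -23, +3 and +21, and the Mt2 window (chr8:94172368-94172667, plus strand) held 4, at -223, -128, -50 and +5, the last pair on the opposite strand.
Mt1: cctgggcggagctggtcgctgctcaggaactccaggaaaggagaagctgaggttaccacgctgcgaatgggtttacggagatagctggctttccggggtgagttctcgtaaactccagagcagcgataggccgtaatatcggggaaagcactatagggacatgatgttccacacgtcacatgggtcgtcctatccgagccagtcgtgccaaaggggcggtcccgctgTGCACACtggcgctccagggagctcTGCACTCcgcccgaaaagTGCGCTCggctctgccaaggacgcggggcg
Mt2: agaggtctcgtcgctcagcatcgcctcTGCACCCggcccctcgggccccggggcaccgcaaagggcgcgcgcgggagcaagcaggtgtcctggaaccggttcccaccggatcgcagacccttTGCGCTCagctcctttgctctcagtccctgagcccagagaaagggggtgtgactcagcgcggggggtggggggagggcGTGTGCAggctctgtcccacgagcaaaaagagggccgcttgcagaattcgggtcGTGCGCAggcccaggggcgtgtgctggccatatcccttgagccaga
Among 32851 RefSeq promoter windows of the same length, 25.7% held at least 1 such match, 1.97% at least 3 and 0.517% at least 4. Gclm held 3 matches and Srxn1 held 1.

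The core of the antioxidant response element was searched as TGACNNNGC on both strands, and 12.4% of the same windows held at least 1. It was found once in Mt2 (at -79), once in Gclm (at -134, opposite strand), once in 1 of the 3 windows of Txnrd1 (at -92, opposite strand) and once in Srxn1 (at +29, opposite strand). The windows of Gclm (chr3:122245307-122245606, plus strand) and Srxn1 (chr2:152105274-152105573, plus strand) are shown because the genotype difference at 5 weeks was 0.08 for the former gene and 0.58 for the latter (log2 scale), with that match in capitals. In Gclm the match overlaps the metal response element match at -138.
Gclm: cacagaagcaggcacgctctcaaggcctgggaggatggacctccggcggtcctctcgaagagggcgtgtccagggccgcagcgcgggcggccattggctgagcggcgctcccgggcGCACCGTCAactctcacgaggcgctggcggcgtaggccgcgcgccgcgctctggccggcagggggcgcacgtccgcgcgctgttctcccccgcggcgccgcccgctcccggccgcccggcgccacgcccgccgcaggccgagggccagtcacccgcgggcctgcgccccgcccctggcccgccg
Srxn1: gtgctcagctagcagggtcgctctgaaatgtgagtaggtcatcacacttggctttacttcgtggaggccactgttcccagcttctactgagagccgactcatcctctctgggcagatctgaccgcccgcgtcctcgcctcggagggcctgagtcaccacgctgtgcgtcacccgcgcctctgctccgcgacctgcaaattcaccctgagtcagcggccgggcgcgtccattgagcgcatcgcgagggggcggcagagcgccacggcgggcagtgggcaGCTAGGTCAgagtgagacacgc
These matches are letters in a window and were not tested for binding, and motifs further from the start were not searched.

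Levels are in TPM, the authors' measure of a gene's share of all transcripts after correction for length. Every library held the defining transcripts of skeletal muscle, such as Acta1 at 4534 to 9450 TPM, and of its fast fibres, such as Myh4 at 2222 to 6419 TPM. Col6a2 was at 19.9 to 51.2 TPM in WT at 5 weeks and 6.60 to 13.6 TPM at 25 weeks, against 0 to 0.171 and 0.00785 to 0.0344 TPM in Col6a2-/-, so the target gene went with every label. Mitochondrial genes took 31.9% to 46.9% of TPM and Rn7s small RNA genes 19.4% to 28.7%, and these shares set the scale of all other genes. Relative depth, the ratio of coverage to FPKM, ranged from 6.78 to 13.7 with a median of 8.95. All 9 genes passed the filter of at least 1 TPM in at least 4 libraries, together with 12817 genes in all. Differences are in log2(TPM + 1), a scale that understates changes of low genes, each with its standard error (SE) from a limma model over all 8 groups, and a gene is called at a Benjamini-Hochberg adjusted p under 0.05.

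**Figure D1:**
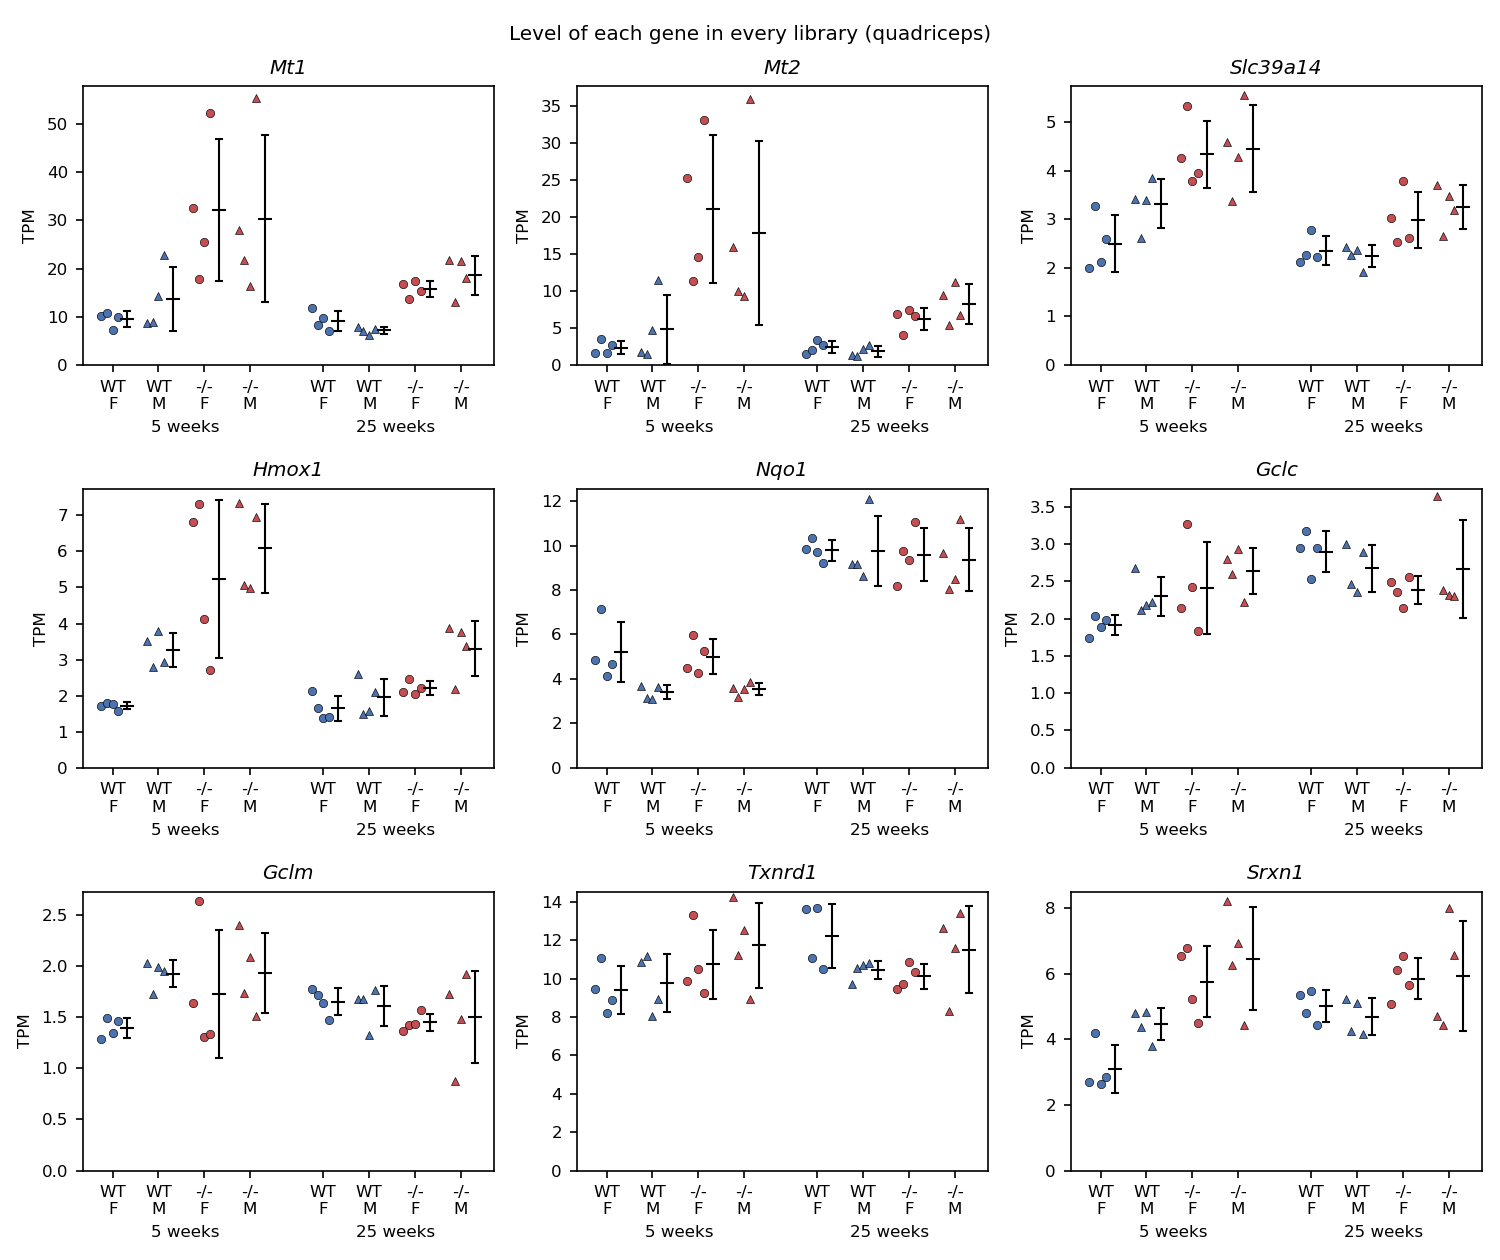
TPM of each gene in every library (y axis, from 0) by genotype and sex (x axis), with 5 weeks at left and 25 weeks at right of each panel. Circles are females and triangles males, blue is WT and red Col6a2-/-, and each bar is the mean ± SD of 4 libraries. Mt1 and Mt2 of all 8 Col6a2-/- libraries lie above all 8 WT libraries at 25 weeks, and Nqo1 lies higher at 25 than at 5 weeks in both genotypes.

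Mt2, a metallothionein, had the largest genotype difference of the 9 genes at both ages. At 5 weeks, WT females had 1.66, 3.46, 1.59 and 2.65 TPM and WT males 1.69, 1.48, 4.71 and 11.4 TPM. Col6a2-/- females had 25.3, 11.4, 14.6 and 33.1 TPM and Col6a2-/- males 15.9, 10.0, 9.30 and 35.9 TPM. A single WT male at 11.4 TPM lay among the mutant libraries, and 5 of 8 mutant libraries lay above it. The mean was 3.59 ± 3.37 TPM in WT and 19.4 ± 10.6 TPM in Col6a2-/- (SD, n = 8 each), a ratio of 5.42. The difference was 2.23 (SE 0.284), and 2.46 without that WT male (5-week WT male replicate 4).

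At 25 weeks Mt2 was lower in the mutant than at 5 weeks and still above WT. WT females had 1.54, 1.97, 3.42 and 2.68 TPM and WT males 1.34, 1.17, 2.14 and 2.71 TPM. Col6a2-/- females had 6.94, 4.08, 7.41 and 6.56 TPM and Col6a2-/- males 9.50, 5.41, 11.3 and 6.76 TPM. The genotypes did not overlap, since all 8 mutant libraries lay above all 8 WT libraries. Means were 2.12 ± 0.777 and 7.24 ± 2.25 TPM (SD, n = 8 each), a ratio of 3.42 and a difference of 1.39 (SE 0.284). The estimate at 25 weeks was smaller than that at 5 weeks by 0.83 (genotype by age -0.83, SE 0.402), which limma did not call after adjustment.

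Mt1, the neighbouring metallothionein, was the more abundant of the pair in every library. At 5 weeks, WT females had 10.1, 10.8, 7.16 and 9.94 TPM and WT males 8.79, 8.95, 14.3 and 22.8 TPM. Col6a2-/- females had 32.7, 17.9, 25.6 and 52.3 TPM and Col6a2-/- males 28.0, 21.7, 16.4 and 55.5 TPM. As for Mt2, 5 of 8 mutant libraries lay above the same high WT male, and the difference was 1.31 (SE 0.207), with a ratio of mean TPM of 2.69. At 25 weeks, WT females had 11.9, 8.20, 9.65 and 6.97 TPM and WT males 7.85, 7.14, 6.13 and 7.53 TPM. Col6a2-/- females then had 16.7, 13.7, 17.4 and 15.4 TPM and Col6a2-/- males 21.7, 13.1, 21.6 and 18.0 TPM. Again all 8 mutant libraries lay above all 8 WT libraries at that age, with a difference of 0.99 (SE 0.207) and a ratio of 2.11. Mt1 and Mt2 were the 2 genes of the 9 whose genotypes did not overlap at 25 weeks. Such a split held for 0.663% of all genes tested at 25 weeks and 1.18% at 5 weeks, and nothing is read from it for genes chosen on this contrast.

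The 2 metallothioneins moved together from library to library. Pearson's r of their log2 values was 0.96 over the 32 libraries and 0.85 after each group's mean was removed, a description with no p-value. Their ratio differed by genotype, since the median of Mt1 over Mt2 TPM was 4.12 in WT and 1.67 in Col6a2-/- at 5 weeks, and 3.52 and 2.38 at 25 weeks. At 5 weeks the ratio ranged from 1.99 to 6.10 in WT and from 1.29 to 2.16 in Col6a2-/-, so the ranges overlapped. At 25 weeks they were 2.60 to 7.71 and 1.91 to 3.35, a wider overlap.

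**Figure D2:**
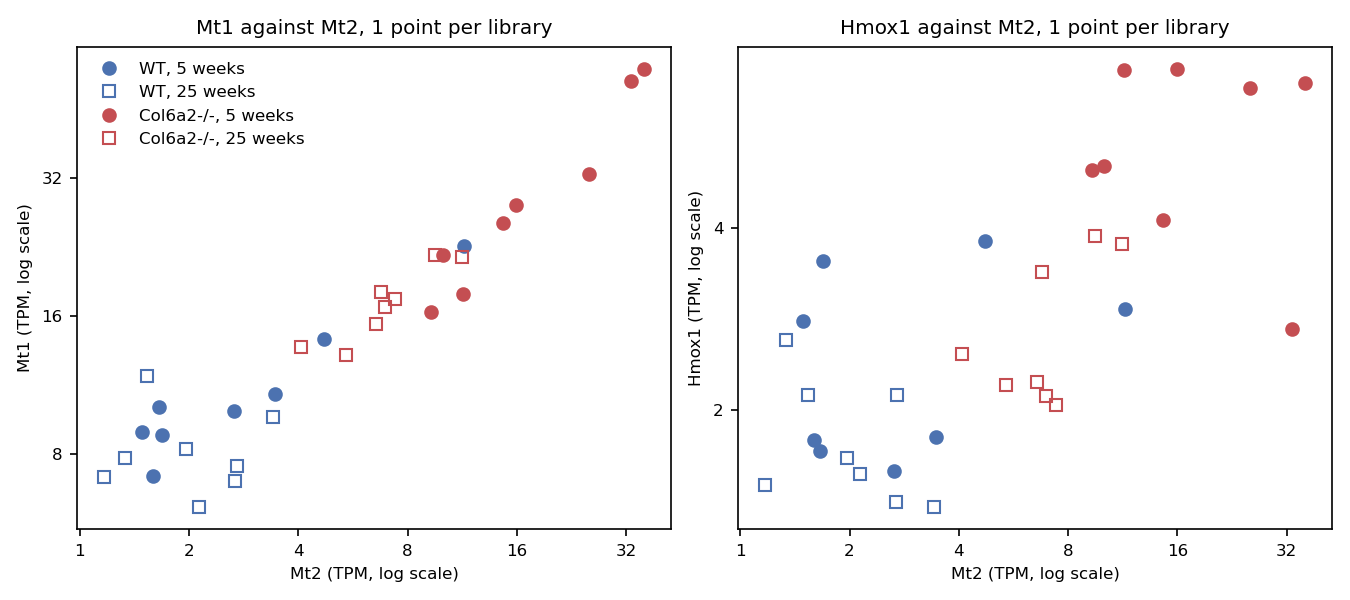
Level of Mt1 (left) and Hmox1 (right) against that of Mt2 in each of the 32 libraries, both axes in TPM on log scales. Blue is WT, red Col6a2-/-, filled circles 5 weeks and open squares 25 weeks. Mt1 follows Mt2 closely (r = 0.96), while Hmox1 is scattered at a given Mt2 level within a group.

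Slc39a14 encodes ZIP14, a plasma membrane carrier that brings zinc, iron and manganese into cells and is known to be induced in inflammation. At 5 weeks, WT females had 1.99, 3.28, 2.13 and 2.60 TPM and WT males 3.43, 2.62, 3.40 and 3.85 TPM. Col6a2-/- females had 4.26, 5.35, 3.80 and 3.97 TPM and Col6a2-/- males 4.60, 3.38, 4.29 and 5.57 TPM. The genotypes overlapped, with 6 of 8 mutant libraries above the highest WT library, a difference of 0.47 (SE 0.0924) and a ratio of 1.51. At 25 weeks, WT females had 2.12, 2.26, 2.79 and 2.23 TPM and WT males 2.43, 2.28, 2.37 and 1.91 TPM. Col6a2-/- females then had 3.03, 2.53, 3.78 and 2.62 TPM and Col6a2-/- males 3.71, 2.66, 3.48 and 3.19 TPM. Of these mutant libraries 5 of 8 lay above the highest WT library, with a difference of 0.32 (SE 0.0924) and a ratio of 1.36.

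Hmox1 encodes haem oxygenase 1, the inducible enzyme that breaks haem into biliverdin, iron and carbon monoxide. At 5 weeks, WT females had 1.71, 1.80, 1.78 and 1.58 TPM and WT males 3.52, 2.81, 3.80 and 2.94 TPM. Col6a2-/- females had 6.81, 7.31, 4.12 and 2.72 TPM and Col6a2-/- males 7.34, 5.06, 4.98 and 6.96 TPM. In this set 7 of 8 mutant libraries lay above the highest WT library, and mutant female replicate 4, at 2.72 TPM, lay below all 4 WT males. The difference was 0.92 (SE 0.128), with a ratio of 2.27. At 25 weeks, WT females had 2.12, 1.67, 1.38 and 1.41 TPM and WT males 2.61, 1.50, 1.57 and 2.11 TPM. Col6a2-/- females then had 2.11, 2.47, 2.04 and 2.22 TPM and Col6a2-/- males 3.88, 2.20, 3.76 and 3.38 TPM. The genotypes overlapped more at this age, with 3 of 8 mutant libraries above the highest WT library, a difference of 0.41 (SE 0.128) and a ratio of 1.53. The genotype by age difference was -0.51 (SE 0.181), also not called.

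Srxn1 encodes sulfiredoxin, which restores peroxiredoxins that have been over-oxidised. At 5 weeks, WT females had 2.70, 4.18, 2.63 and 2.84 TPM and WT males 4.81, 4.38, 4.82 and 3.79 TPM. Col6a2-/- females had 6.52, 6.78, 5.22 and 4.50 TPM and Col6a2-/- males 8.21, 6.25, 6.94 and 4.43 TPM. Here 6 of 8 mutant libraries lay above the highest WT library, with a difference of 0.58 (SE 0.110) and a ratio of 1.62. At 25 weeks, WT females had 5.35, 4.79, 5.46 and 4.44 TPM and WT males 5.23, 4.25, 5.10 and 4.15 TPM. Col6a2-/- females then had 5.09, 6.12, 6.53 and 5.64 TPM and Col6a2-/- males 4.71, 4.43, 8.01 and 6.56 TPM. The genotypes overlapped, with 5 of 8 mutant libraries above the highest WT library. The difference was 0.22 (SE 0.110), and the WT mean had gone from 3.77 to 4.85 TPM while the mutant mean was 6.11 and 5.89 TPM.

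The other 4 enzymes had smaller differences between genotypes at 5 weeks, and their ranges overlapped at both ages. Nqo1, the quinone reductase often used as a readout of NRF2, differed between genotypes by 0.01 (SE 0.0893) at 5 weeks and -0.04 (SE 0.0893) at 25 weeks. Gclc, the catalytic subunit of the enzyme that makes the first bond of glutathione, differed by 0.18 (SE 0.0797) and -0.11 (SE 0.0797). Gclm, the modifier subunit of that enzyme, differed by 0.08 (SE 0.0881) and -0.10 (SE 0.0881). Txnrd1, the cytosolic thioredoxin reductase, differed by 0.20 (SE 0.0981) and -0.07 (SE 0.0981). In TPM, Gclc ranged from 1.74 to 2.68 in WT and 1.83 to 3.27 in Col6a2-/- at 5 weeks. Txnrd1 ranged from 8.08 to 11.2 and 8.96 to 14.2 TPM, and Gclm from 1.29 to 2.03 and 1.30 to 2.64 TPM, at the same age. At 25 weeks Gclc ranged from 2.36 to 3.18 TPM in WT and 2.14 to 3.65 TPM in Col6a2-/-, Gclm from 1.33 to 1.78 and 0.878 to 1.92 TPM, and Txnrd1 from 9.75 to 13.7 and 8.31 to 13.4 TPM. At 5 weeks the ranges of the genotypes overlapped for each of the 9 genes, with differences from 0.47 to 2.23 for the metallothioneins, Slc39a14, Hmox1 and Srxn1 and from 0.01 to 0.20 for Nqo1, Gclc, Gclm and Txnrd1. At 25 weeks the ranges overlapped for each gene but Mt1 and Mt2, with differences from 0.22 to 1.39 in the former set and from -0.11 to -0.04 in the latter.

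Of the 9 genes, 5 were called higher in Col6a2-/- at 5 weeks (Mt1, Mt2, Slc39a14, Hmox1 and Srxn1), where 23.2% of all genes were called higher, and 3 at 25 weeks (Mt1, Mt2 and Slc39a14), where 4.47% were. Because the genes were picked on these contrasts, nothing is read from these counts. Their median difference was 0.47 at 5 weeks and 0.22 at 25 weeks, beside 0.15 and 0.082 for all genes tested. With median-of-ratios size factors the median of all genes at 5 weeks moved from 0.15 to -0.015. Mt1, Mt2, Slc39a14, Hmox1 and Srxn1 stayed above 0 at both ages under each of the 3 other scalings. With quantile normalization the difference of Slc39a14 was 0.29 at 5 weeks and 0.19 at 25 weeks, and with median-of-ratios size factors that of Srxn1 at 25 weeks was 0.11. Under such scalings the small 5-week differences of Nqo1 (down to -0.18), Gclm (down to -0.11) and Gclc (down to -0.013) changed sign. For the interaction of genotype and age, 0 of the 9 genes and 0.492% of all genes were called in limma, with 898 of all genes at an unadjusted p under 0.05, and nothing is read from this count for the 9 genes either.

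**Figure D3:**
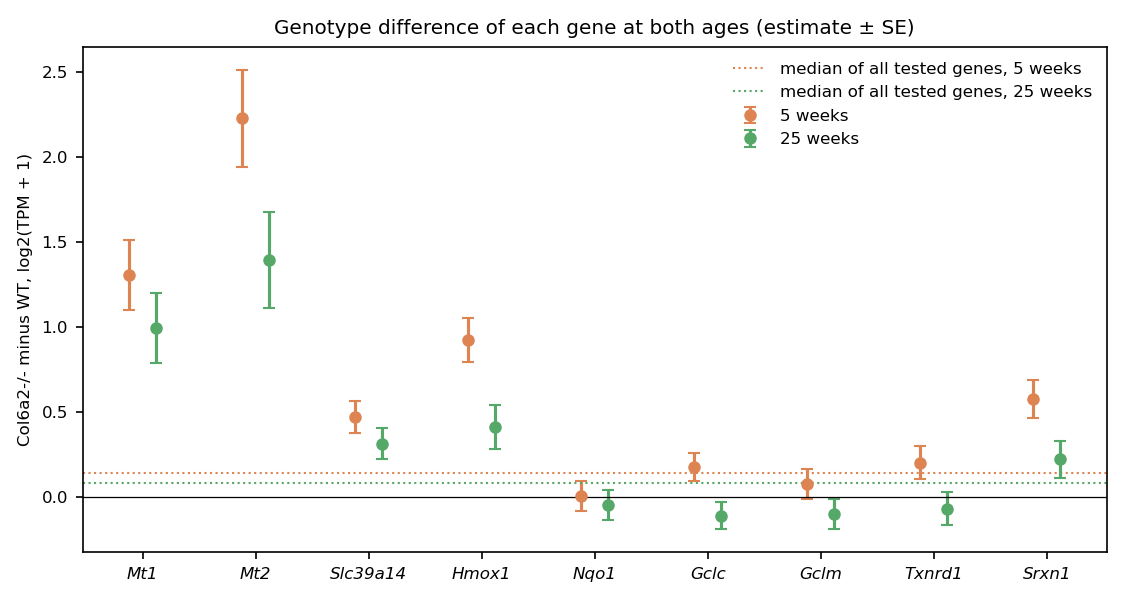
Difference between Col6a2-/- and WT in log2(TPM + 1) (y axis) for each gene (x axis), at 5 weeks (orange) and 25 weeks (green). Points are estimates over both sexes with bars of 1 SE, and dotted lines are the medians of all 12817 genes tested. Mt2 stands at 2.23 and 1.39, and Nqo1 lies near 0 at both ages.

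The mean metallothionein level was higher in the mutant in both sexes. At 5 weeks the Mt2 difference was 2.65 (SE 0.402) in females and 1.81 (SE 0.402) in males, and at 25 weeks it was 1.10 and 1.69 (SE 0.402 each). For Mt1 it was 1.57 and 1.05 at 5 weeks and 0.74 and 1.25 at 25 weeks (SE 0.293 each). As a description, limma called both genes higher in females and males of 5 weeks and in males of 25 weeks, where 12.3%, 4.55% and 2.91% of all genes were. In females of 25 weeks it called neither of them and 0% of all genes higher, with 621 genes at an unadjusted p under 0.05. The genes were picked on the genotype difference, so nothing is read from these calls. For Hmox1 the difference was 1.13 and 0.72 at 5 weeks and 0.29 and 0.54 at 25 weeks (SE 0.181 each). The genotype by sex term, which is the mean over both ages, was tested, and limma called 0 of the 9 genes, with none at an unadjusted p under 0.05. Over all genes that term gave 2 calls (0.0156%) and 206 genes at an unadjusted p under 0.05. The 95% interval of the Mt2 term ran from -0.95 to 0.70. For Mt1, Mt2 and Hmox1 the female difference was the larger at 5 weeks and the male one at 25 weeks, so they cancel wholly or in part in the mean, and the differences between the sexes within an age were not tested.

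Age in WT mice could be tested, although this contrast uses the same WT libraries as the genotype differences. Nqo1 rose with age, from 4.86, 7.16, 4.11 and 4.69 TPM in females and 3.68, 3.16, 3.10 and 3.65 TPM in males at 5 weeks to 9.86, 10.4, 9.73 and 9.21 TPM in females and 9.16, 9.18, 8.65 and 12.1 TPM in males at 25 weeks. All 8 libraries of 25 weeks lay above all 8 of 5 weeks. The difference was 1.05 (SE 0.0893, adjusted p = 1.6e-09, limma). The Col6a2-/- libraries, given as a description, showed the same separation, with 4.51, 5.97, 4.26 and 5.27 TPM in females and 3.60, 3.18, 3.55 and 3.84 TPM in males at 5 weeks. At 25 weeks these mutant groups had 8.20, 9.78, 9.34 and 11.1 TPM in females and 9.67, 8.04, 8.52 and 11.2 TPM in males.

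Gclc and Srxn1 also rose with age in WT, so 3 of 9 genes were called higher against 4.47% of all genes, and 15.3% of all genes were called lower. Gclc rose by 0.29 (SE 0.0797, adjusted p = 0.0107, limma), from a median of 2.08 TPM (1.74 to 2.68) to 2.92 TPM (2.36 to 3.18). Srxn1 rose by 0.31 (SE 0.110, adjusted p = 0.0425, limma), and its WT ranges of 2.63 to 4.82 TPM and 4.15 to 5.46 TPM overlapped. The call of Srxn1 was lost without a filter on low values (adjusted p = 0.0863). It was also lost when any 1 of 10 WT libraries was left out, with adjusted p of 0.0523 to 0.0862: at 5 weeks female replicates 1, 3 and 4 and male replicates 2 and 4, and at 25 weeks female replicates 1, 2 and 3 and male replicates 1 and 3. Txnrd1 was at 0.22 (SE 0.0981, adjusted p = 0.115, limma) and passed the threshold under each of the 3 other scalings, with adjusted p from 0.000700 to 0.0161. In those scalings a larger share of all calls by age in WT were higher, as given below.

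The metallothionein genes were not called by age in WT. Mt1 was at -0.41 (SE 0.207, adjusted p = 0.178, limma) and Mt2 at -0.36 (SE 0.284, adjusted p = 0.413, limma). Slc39a14 was at -0.23 (adjusted p = 0.0801, limma), and at 0.0421 without 5-week WT male replicate 2. Hmox1 was at -0.30 (adjusted p = 0.107, limma), and at 0.0461 without 5-week Col6a2-/- female replicate 4. Both also passed when the model held WT libraries only (adjusted p = 0.0495 and 0.0169). In Col6a2-/-, as a description, Mt2 differed between ages by -1.19 (SE 0.284), Hmox1 by -0.80 (SE 0.128), Mt1 by -0.72 (SE 0.207) and Slc39a14 by -0.39 (SE 0.0924).

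Between the sexes, 1 of 9 genes was called higher in males and 1 lower, against 3.05% of all genes called in either direction. Hmox1 was higher in males by 0.36 (SE 0.0906, adjusted p = 0.0204, limma), and with no filter on low values its adjusted p was 0.0515. Nqo1 was lower in males by 0.23 (log2 difference -0.23, SE 0.0631, adjusted p = 0.0396, limma). That call was lost in 18 of the 32 fits that each left out 1 library, drawn from all 8 groups, with adjusted p of up to 0.0712. It was also lost without a filter (0.0642) and after rescaling without mitochondrial and Rn7s genes (0.116).

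The sexes were then compared within each age, a contrast added after the data were seen, and at 5 weeks 4.49% of all genes were called. At 5 weeks Nqo1 of all 8 females, from 4.11 to 7.16 TPM, lay above that of all 8 males, from 3.10 to 3.84 TPM. The difference was -0.44 (SE 0.0893, adjusted p = 0.00372, limma), and in the fits that left out 1 library its adjusted p was at most 0.0118. At 25 weeks the difference was -0.02 (SE 0.0893, adjusted p = 0.918, limma). The difference between the ages, 0.41 (SE 0.126), had an adjusted p of 0.0612 in limma, where 3.43% of all genes were called, and of 0.00402 to 0.0493 under 5 of the other settings tried. It was also under 0.05 without 5-week WT female replicate 3 (0.0482), Col6a2-/- female replicate 2 (0.0265) or Col6a2-/- male replicate 4 (0.0365). Hmox1 at 5 weeks was higher in males by 0.44 (SE 0.128, adjusted p = 0.0426, limma). That call was lost in 11 of the 32 fits that left out 1 library, up to 0.134 without 5-week Col6a2-/- female replicate 4, and under 4 of the other settings. The summed level of 10 macrophage markers at 5 weeks was 70.5 to 73.9 TPM in WT females and 78.0 to 118.7 TPM in WT males. In Col6a2-/- the sexes overlapped, at 108.3 to 381.5 TPM in females and 264.9 to 379.8 TPM in males. The part of macrophages in the sex difference of Hmox1 was not tested. Without 5-week Col6a2-/- female replicate 2, limma also called Gclc, Gclm and Srxn1 higher in males at 5 weeks (adjusted p = 0.0440, 0.0108 and 0.0398). Srxn1 was called as well without 5-week Col6a2-/- male replicate 4 (0.0345). At 25 weeks limma called 0 of the 9 genes between the sexes, with Hmox1 alone at an unadjusted p under 0.05 (0.0389), while 2.41% of all genes were called. Sex by age was called for Gclm without 5-week Col6a2-/- female replicate 2 (adjusted p = 0.0447, limma). With 1 library left out, the counts of all genes called for sex at 5 weeks and for sex by age also moved widely, as given below. The calls above that appeared with 1 library left out are therefore not read as particular to these genes.

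The other metallothioneins and their regulator were read from lists of related genes, which are not members and were tested by genotype. Those lists too were drawn up with earlier results of these data known, so their counts describe these libraries and are no independent support for a direction. Mt3, a metallothionein best known from brain, was higher in Col6a2-/- by 1.61 at 5 weeks and by 0.57 at 25 weeks (SE 0.133 each). WT libraries held no more than 1.02 TPM of Mt3, so it passed the filter mainly through 5-week Col6a2-/- libraries. For that reason its differences are a description with no p-value. Its levels at 5 weeks were 0.247 to 1.02 TPM in WT (median 0.617) and 1.66 to 6.01 TPM in Col6a2-/- (median 4.38), with no overlap. At 25 weeks the ranges were 0.0633 to 0.423 and 0.497 to 1.54 TPM, again apart. The estimate of the Mt3 difference was smaller at 25 weeks than at 5 weeks (-1.05, SE 0.188). Mt4 was at 0.109 TPM or less in every library and was not tested. Mtf1, the zinc-sensing activator, was at 0.05 (SE 0.0836, adjusted p = 0.671, limma) at 5 weeks and 0.07 (adjusted p = 0.710) at 25 weeks.

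Zinc carriers other than Slc39a14 were led by importers of the ZIP family, of which 4 of 8 tested rose in Col6a2-/- at 5 weeks, against 23.2% of all genes. Slc39a1 rose by 0.39 (SE 0.10, adjusted p = 0.00565), Slc39a11 by 0.36 (adjusted p = 0.0137) and Slc39a6 by 0.32 (adjusted p = 0.0143), and the fourth, Slc39a10, named after its value was seen, by 0.27 (adjusted p = 0.00885). With median-of-ratios size factors 2 of the 8 were called and with quantile normalization 1, where 11.3% and 11% of all genes were called higher. At 25 weeks limma called 0 of 8, with 4 at an unadjusted p under 0.05, while 2 were called with median-of-ratios size factors and 1 with quantile normalization. In these scalings 5.58% and 3.77% of all genes were called higher at that age. Of the ZnT family of exporters, limma called 0 of 6 at both ages, with 1 at an unadjusted p under 0.05 at each. At 5 weeks 1 was called lower with quantile normalization, beside 13% of all genes, and 1 higher without 5-week Col6a2-/- female replicate 4. Of the fits that left out 1 library, the latter had the highest count of all genes called at 5 weeks. With age in WT, where 15.3% of all genes fell, 4 of the 8 ZIP genes fell (Slc39a1 at -0.55, Slc39a6 at -0.42, Slc39a13 at -0.40 and Slc39a10 at -0.29) and 0 rose. Under the 3 other scalings 3 or 4 of the 8 fell, and a smaller share of all calls by age in WT were lower there, as given below. Of 8 fibroblast markers 4 also fell with age in WT, in limma and under each of these scalings, and their summed level went from 761 to 2116 TPM at 5 weeks to 265 to 531 TPM at 25 weeks. The part of fibroblasts in the ZIP genes was not tested. Slc39a13 is named after its value was seen. Of the 6 ZnT genes 3 fell with age in WT and 0 rose, while 4 fell with median-of-ratios size factors, 2 with quantile normalization, 0 after rescaling without mitochondrial and Rn7s genes and 1 without 25-week WT male replicate 3.

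The regulators of NRF2 showed no call by genotype at 5 weeks in limma, with 0 of 9 called and 4 at an unadjusted p under 0.05. Nfe2l2 was at 0.16 (SE 0.0914, adjusted p = 0.196) at 5 weeks and 0.13 (adjusted p = 0.462) at 25 weeks. Keap1 was at -0.10 (SE 0.0878, adjusted p = 0.431) and -0.12 (adjusted p = 0.478), and was called lower at 5 weeks with median-of-ratios size factors (-0.28) and quantile normalization (-0.26), and at 25 weeks with the former (-0.24). In both scalings 2 of the 9 regulators were called lower at 5 weeks, and at 25 weeks 3 were with the former and 1 with the latter. Of all genes, 12.9% and 13% were called lower at 5 weeks and 5.39% and 2.85% at 25 weeks in these scalings. Maff, a small partner of NRF2 on DNA, was the 1 gene called at 25 weeks (0.45, adjusted p = 0.0373), where 4.47% of all genes were called higher. It was a call lost in 12 of the 32 fits that left out 1 library, with no filter on low values and under each of the 3 other scalings.

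Of 24 other NRF2 targets tested, 6 rose and 1 fell at 5 weeks, a share near the 23.2% and 2.14% of all genes. The list's median was 0.15, as was that of all genes. The largest increases were those of Ftl1 (0.68, SE 0.126, adjusted p = 0.000242), the ferritin light chain, Txn1 (0.64, SE 0.119, adjusted p = 0.000278), the cytosolic thioredoxin, and Blvrb (0.54, SE 0.113, adjusted p = 0.000935), a biliverdin reductase. Gstm1, a glutathione transferase named after its value was seen, fell by 0.36 (adjusted p = 0.0289), and with no filter on low values 8 of 27 targets rose and 0 fell. Without that filter 10.4% of all genes were called higher and 0.819% lower. With median-of-ratios size factors the split was 3 higher and 4 lower, and with quantile normalization 3 and 5. Of all genes, 11.3% were called higher and 12.9% lower with the former scaling, and 11% and 13% with the latter. At 25 weeks 3 of 24 rose, Ftl1 (0.52), Blvrb (0.46) and Ugdh (0.45, adjusted p = 0.0145), and 0 fell, beside 4.47% and 0.234% of all genes.

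Other antioxidant enzymes gave 7 higher and 0 lower of 24 at 5 weeks, and 3 higher and 0 lower at 25 weeks. The 5-week share was near the 23.2% of all genes, and 4.47% of all genes were called higher at 25 weeks. Prdx6, a peroxiredoxin, rose by 0.60 (SE 0.191, adjusted p = 0.0224), Sod3, the extracellular superoxide dismutase, by 0.53 (SE 0.118, adjusted p = 0.00173) and Gpx8 by 0.47 (adjusted p = 0.0117) at 5 weeks. With median-of-ratios size factors 2 of the 24 were called at 5 weeks, beside 11.3% of all genes called higher. Prdx6 was not among them (adjusted p = 0.174, limma). Its call was also lost without 5-week WT female replicate 3, WT male replicate 3 or Col6a2-/- male replicate 3. At 25 weeks Gpx8 (0.61), Sod3 (0.52) and Prdx4 (0.47) rose, the last call being lost in 7 of the 32 fits that left out 1 library. Of 10 genes of haem and iron handling, 3 rose at 5 weeks, a share near the 23.2% of all genes: Cd163, the scavenger receptor for haemoglobin on macrophages (0.60, adjusted p = 0.00197), Blvra (0.28, adjusted p = 0.0253) and the iron exporter Slc40a1 (0.26, adjusted p = 0.0477). The call of Slc40a1 was lost in 23 of the 32 fits that left out 1 library and that of Blvra in 7, and of the 3 genes Cd163 was the 1 still called with median-of-ratios size factors. In that scaling and with quantile normalization 1 of the 10 was called higher and 1 lower at 5 weeks. Of all genes, 11.3% and 11% were called higher there, and 12.9% and 13% lower. At 25 weeks limma called 0 of 10, while 1 was called lower with median-of-ratios size factors, beside 5.39% of all genes.

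NADPH oxidase, the enzyme complex that makes superoxide, had 7 of 7 genes called higher at 5 weeks under each scaling, beside 23.2% of all genes. Cybb, the catalytic chain in phagocytes, rose by 1.06 (SE 0.152, adjusted p = 8.8e-06), Nox4, a catalytic chain outside phagocytes, by 0.92 (SE 0.114, adjusted p = 1.3e-06) and Ncf1 by 0.88 (SE 0.137, adjusted p = 2.9e-05). At 25 weeks 4 of 7 rose, beside 4.47% of all genes, among them Nox4 (0.58, adjusted p = 0.00361), Rac2 (0.42) and Ncf4 (0.41, named after its value was seen). The call of Rac2 was lost in 25 of the 32 fits that left out 1 library. The median of Rac2 in WT was 0.534 TPM at 5 weeks and 0.380 TPM at 25 weeks, so it passed the filter mainly through Col6a2-/- libraries. With quantile normalization 1 of the 7 was called at that age, and 2 were after rescaling without mitochondrial and Rn7s genes or with no filter on low values. In these settings 3.77%, 3.09% and 0.968% of all genes were called higher. Of 10 genes of the interleukin 6 and acute phase response, 7 rose at 5 weeks and 6 at 25 weeks, against 23.2% and 4.47% of all genes. At 25 weeks 4 were called with quantile normalization, and 2 of 12 with no filter on low values, beside 3.77% and 0.968% of all genes. The list was led by Timp1 (1.65, SE 0.221, adjusted p = 3.5e-06 at 5 weeks), Serpina3n (0.86, adjusted p = 0.00218) and Junb (0.82, adjusted p = 0.00287). Of 10 glucocorticoid-responsive genes, 0 rose and Sgk1 fell at 5 weeks, beside 2.14% of all genes called lower (-0.41, adjusted p = 0.0405, but 0.0803 with no filter on low values and 0.0533 after rescaling without mitochondrial and Rn7s genes), a call lost in 10 of the 32 fits that left out 1 library, and limma called 0 at 25 weeks, with 1 at an unadjusted p under 0.05.

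**Figure D4:**
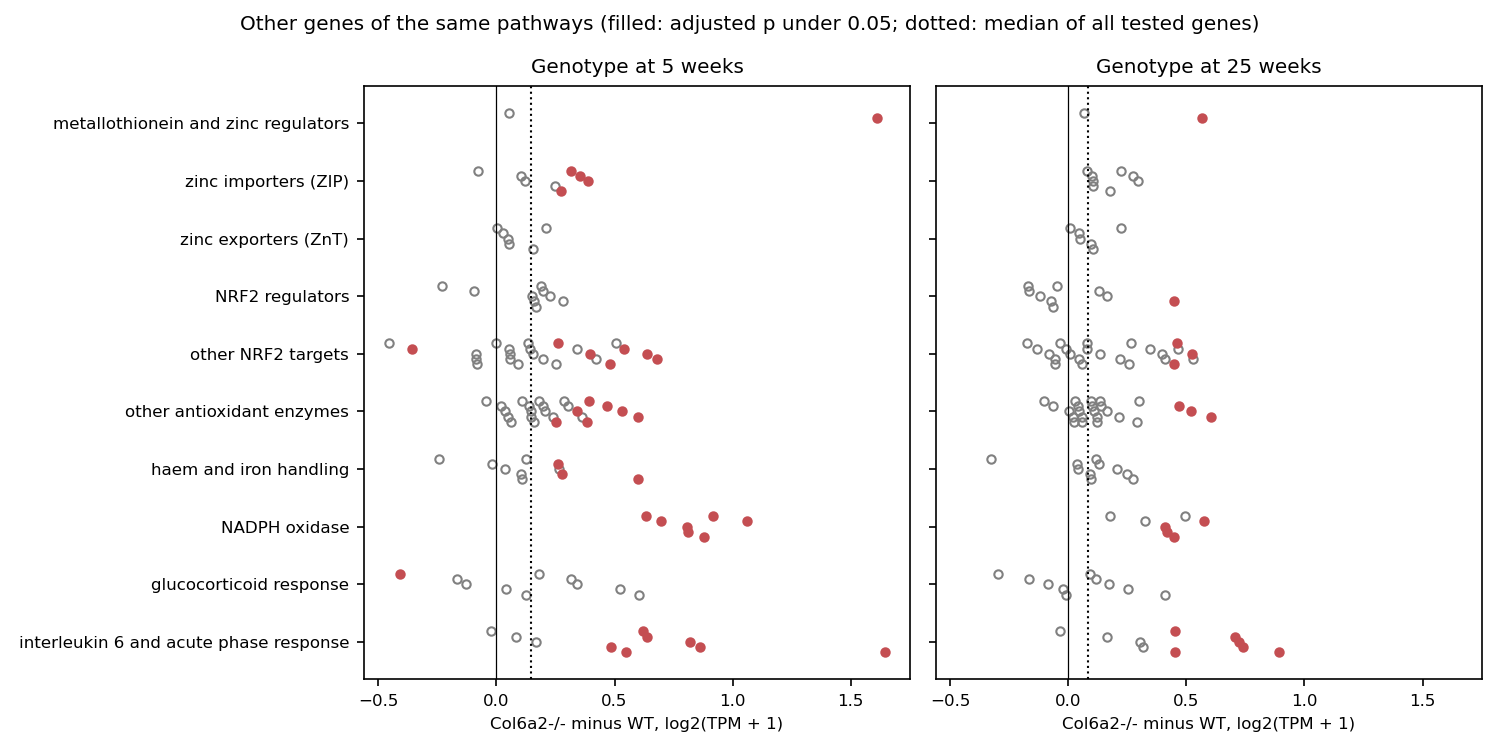
Genotype difference in log2(TPM + 1) (x axis) of each tested gene of 10 related lists (y axis) at 5 weeks (left) and 25 weeks (right). Filled points have an adjusted p under 0.05 in limma and the dotted line is the median of all genes tested. The 7 NADPH oxidase genes are all called at 5 weeks, while the 9 NRF2 regulators are not.

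Several of these counts leaned on single libraries. The count of all genes called by genotype moved too, as given below. It was highest at 5 weeks without 5-week Col6a2-/- female replicate 4, and at 25 weeks without replicate 2 of that group. The list counts that follow have no share of all genes beside them, so their moves are not read as particular to a list. The NRF2 targets that rose numbered 10 at 5 weeks and 5 at 25 weeks without 5-week Col6a2-/- female replicate 4, while the single fall at 5 weeks was lost without 5-week WT female replicate 2, WT male replicate 1 or Col6a2-/- male replicate 2. For the other antioxidant enzymes the 5-week count was 4 without 5-week WT female replicate 3, WT male replicate 3, Col6a2-/- female replicate 1 or Col6a2-/- male replicate 1. Their 25-week count was 5 without 5-week Col6a2-/- female replicate 2 or 25-week Col6a2-/- male replicate 2. The haem and iron count was 1 in 6 of the 32 fits: without 5-week WT female replicate 1 or 3, WT male replicate 4, Col6a2-/- female replicate 2 or Col6a2-/- male replicate 1 or 3. For the ZIP importers the 25-week count was 2 (Slc39a1 and Slc39a6) without 5-week Col6a2-/- female replicate 2 or 4, and 1 without 25-week Col6a2-/- male replicate 2. The 25-week NADPH oxidase count was 2 in 9 fits: without 25-week WT female replicate 2, 3 or 4, WT male replicate 2 or 3, Col6a2-/- female replicate 1 or 4 or Col6a2-/- male replicate 1 or 3. The 25-week interleukin 6 count was 3 without 25-week WT female replicate 4 or Col6a2-/- male replicate 1 or 3. For the endothelial markers the 5-week count was 1 in 8 fits: without 5-week WT female replicate 1 or 2, WT male replicate 3 or 4, Col6a2-/- female replicate 1 or 2 or Col6a2-/- male replicate 1 or 3. That count was 3 without 5-week WT male replicate 1.

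Markers of other cell types differed between the genotypes as well. All 10 macrophage markers rose in Col6a2-/- at 5 weeks and 8 of 10 at 25 weeks, beside 23.2% and 4.47% of all genes called higher, shares that also apply to the marker lists that follow. Their summed level was 70.5 to 118.7 TPM in WT and 108.3 to 381.5 TPM in Col6a2-/- at 5 weeks, and 46.5 to 125.5 and 121.1 to 226.7 TPM at 25 weeks. Of 8 fibroblast markers, Col3a1, Dpt, Lum and Pdgfra rose at both ages, with sums over the list of 761 to 2116 TPM in WT and 644 to 2474 TPM in Col6a2-/- at 5 weeks. Of 5 endothelial markers, Cdh5 and Pecam1 rose at 5 weeks, while 0 were called with median-of-ratios size factors, and limma called 0 at 25 weeks, with 2 at an unadjusted p under 0.05. These 6 markers are named after their values were seen. Of 10 muscle fibre markers, 6 fell at 5 weeks and 0 were called at 25 weeks, where 6 had an unadjusted p under 0.05, against 2.14% and 0.234% of all genes called lower. With median-of-ratios size factors 7 were called lower at each age, and with quantile normalization 2 at each age. In these scalings 12.9% and 13% of all genes were called lower at 5 weeks, and 5.39% and 2.85% at 25 weeks. Rescaling without mitochondrial and Rn7s genes gave 6 at 5 weeks and 2 at 25 weeks, beside 1.89% and 0.408% of all genes called lower. Neutrophil, adipocyte and erythroid markers gave 0 calls at both ages in limma, with 1 neutrophil gene at an unadjusted p under 0.05 at each age, and the neutrophil marker Ly6g was at 0 in all 32 libraries. At 5 weeks 1 neutrophil marker was called lower with quantile normalization, on log2(TPM + 0.1) or without 5-week Col6a2-/- male replicate 2. At 25 weeks 1 was called higher with median-of-ratios size factors or, for example, without 25-week WT female replicate 1. The part of these cells in the metallothionein and oxidative stress genes was not tested. In whole muscle, more cells of a type and more RNA per cell cannot be told apart.

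The members differed in how they went with the macrophage markers, given as correlations of log2 values with no p-value. Over the 32 libraries, r with the mean macrophage marker level was 0.88 for Hmox1, 0.76 for Slc39a14, 0.70 for Mt2 and 0.68 for Mt1. After each group's mean was removed it was 0.76 for Hmox1 and 0.14 for Slc39a14, but -0.24 for Mt2 and -0.29 for Mt1. For Gclc the values were 0.33 and 0.78, and for Gclm 0.47 and 0.65. Within groups the same enzymes also went with the fibroblast markers, at 0.76 for Gclc, 0.62 for Hmox1 and 0.60 for Gclm, and Gclc with the neutrophil markers (0.63). For the metallothioneins the within-group values were lower still with the endothelial markers (-0.63 for Mt2 and -0.59 for Mt1) and the erythroid markers (-0.54 and -0.46), and for Mt2 with the neutrophil markers (-0.53). The neutrophil markers were near the floor, with a summed level of 0.300 to 5.99 TPM over the 32 libraries, so the values with them are uncertain. Within groups Txnrd1 went with Gclm (r = 0.72) and Srxn1 (r = 0.65), while Mt2 and Hmox1 had r = -0.02. All these values come from libraries that share depth and composition.

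The genes most like each member over the 32 libraries, by Pearson's r of log2(TPM + 1), are given for 5 of the members as a description. After Mt1 (0.96), the closest to Mt2 were Ifi207 (0.89), Zfp36 (0.86), Ucp2 (0.85) and Ifi205 (0.84). After Mt2, the closest to Mt1 were Zfp36 (0.86), Ifi207 (0.86), Ucp2 (0.86) and Fas (0.82). For Slc39a14 they were Lrrc8b (0.88), Cyth3 (0.87), Hpcal1 (0.87), Ucp2 (0.86) and Lipa (0.86). For Hmox1 they were Nln (0.93), Ifi35 (0.93), Lipa (0.93), Rab31 (0.92) and Dupd1 (0.92). For Nqo1, which went with age, they were Rasd2 (0.93), Rilpl1 (0.92), Maob (0.92), Asb10 (0.91) and Hook1 (0.91).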

How the data were processed

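Libraries of quadriceps RNA from 32 mice were compared in 8 groups of 4, with groups and replicate numbers taken from the sample titles. Per the labels' protocols, RNA with an integrity value of at least 8 went into TruSeq libraries that were sequenced as paired 150-base reads on a MiSeq. The submitters' processing notes name FastQC, MultiQC, Trimmomatic, HISAT2, SAMtools and StringTie and the builds GRCm38 and mm10. Their versions, and the use of strand, are not given in the sources used here, so reads of antisense partners may be mixed. The deposited tables give coverage, FPKM and TPM per gene, per the file headers. TPM, computed by the authors, was used for all values, and the authors' FPKM and coverage signal served only for relative depth. The absolute number of reads is unknown, so no counting interval is given.

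TPM was summed per gene ID (15 IDs had several rows, none of them a member). The 12817 genes that reached 1 TPM in 4 or more libraries were put on the log2(TPM + 1) scale and entered limma 3.58.1 (R 4.3.3) with a mean per group, trended moderation and Benjamini-Hochberg adjustment over all genes. On simulated data, 82 of 100 genes changed by 0.5 and 99 of 100 changed by 1 at 5 weeks were recovered among 12817 genes, with 5 false calls. The members, 10 related gene lists and 7 marker lists were chosen with earlier results of these data known. All members were named, with Mtf1, Nfe2l2 and Keap1, up to 3 called genes of largest difference per list and age, and the 5 genes most like each of 5 members. A gene that this rule names is not reported here. The alternatives were another pseudocount (0.1), 2 other filters, 3 other scalings, other moderation, fewer libraries, a replicate block and each library left out. Median-of-ratios factors were computed from genes above 0 in every library. Each mouse gave 1 library. The p-values set each difference against the spread between mice within groups, pooled over the groups in the model and moderated across genes.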

Additional observations from a re-analysis of the deposited data

Results flagged for a closer look

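Among 72 combinations of gene and group, 3 had 1 library that stood apart from the other 3 by more than Dixon's critical gap for 4 values, where chance gives about 3.6. Nqo1 of 25-week WT male replicate 4 was at 12.1 TPM, and the other 3 libraries were at 8.65 to 9.18 TPM. Gclc of 25-week Col6a2-/- male replicate 1 was at 3.65 TPM, against 2.30 to 2.39 TPM in the others. Srxn1 of 5-week WT female replicate 2 was at 4.18 TPM, against 2.63 to 2.84 TPM in the others.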

How the results depend on the processing

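Counts of called genes were 3253 for genotype at 5 weeks, 603 at 25 weeks, 63 for genotype by age, 2536 for age in WT, 4389 for age in Col6a2-/-, 391 for sex and 2 for genotype by sex. With at least 5 TPM in 4 libraries they were 1553, 344, 32, 1441, 2263 and 258 for the first 6 of these. With no filter, genotype at 25 weeks gave 343, genotype by age 115 and genotype by sex 5. With median-of-ratios size factors, genotype at 25 weeks gave 1380, genotype by age 114 and sex 795. With quantile normalization, genotype by age gave 163 and sex 828. With only the libraries of the contrast, genotype gave 1907 at 5 weeks and 1177 at 25 weeks. Fewer genes were tested under the stricter filter, and for the other settings the cause was not tested. The share of calls that were higher at 5 weeks was 91.6%, but 46.7% with median-of-ratios size factors and 45.8% with quantile normalization. At 25 weeks it was 95.0%, against 50.9% and 57.0%. For age in WT it was 22.6%, against 51.1% and 51.4%, and 48.8% after rescaling without mitochondrial and Rn7s genes. For age in Col6a2-/- it was 15.8%, against 51.7% and 53.2%. For sex it was 61.4%, against 84.2% after that rescaling.

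With 1 library left out, the counts ranged from 2207 to 4749 for genotype at 5 weeks, 270 to 983 at 25 weeks, 49 to 229 for genotype by age and 327 to 693 for sex. The highest count at 5 weeks and for genotype by age came without 5-week Col6a2-/- female replicate 4, and the highest for 25 weeks and sex without replicate 2 of that group. The sex contrasts added after the data were seen gave 575 calls at 5 weeks (281 to 3420 with 1 library left out), 309 at 25 weeks (208 to 497) and 440 for sex by age (176 to 3821). Over single genes, 5797 of 6076 values under an alternative kept their direction and side of the threshold, or stayed within the spread, and no called value reversed.

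The labels give no pairing by number. Same-numbered libraries of different groups had a mean correlation of 0.031 over 112 pairs, 35 of them over 0.1, against -0.010 and 65 of 336 for other numbers, and 10 of 32 libraries correlated best with their own number. With the replicate number as a block, the counts were 3293, 658, 66, 2587, 4416, 385 and 2, of which 3150, 579, 60, 2475, 4299, 360 and 2 genes were shared with the counts above. Depth in reads is unknown, so the precision of low genes such as Gclm rests on the spread between mice alone.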
